A study of Homo sapiens with 6 samples.

Results

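Solute carriers (SLC) are membrane proteins that move amino acids, sugars, vitamins, ions, metals, nucleosides and metabolic intermediates across the plasma membrane and the membranes of organelles. Their genes were followed here in CAL51 cells, an established human triple-negative breast cancer line, in which the DNA exonuclease gene TREX1 had been targeted. Levels are given on the log2 scale of CPM, which are read counts scaled for each library. The deposited scaling was used, and it differs from scaling to plain library totals. A gene was taken where its symbol starts with SLC and a digit and has no -AS suffix. Its level had to be at least 0 log2 CPM, that is about 1 CPM, in at least 2 of 6 libraries. Of 255 rows with such a symbol, 10 antisense names and 15 rows below that level were left out, and 230 remained of 13765 genes tested. At the edge, SLC25A27 was the lowest to enter, with a second-highest library at 0.03 log2 CPM, and SLC22A2 stayed out with 1 library at 0.49. By name, 223 of the 230 are carriers. The other 7 are not carriers: SLC2A4RG, SLC4A1AP, SLC7A6OS, the pseudogene SLC9A7P1 and the divergent transcripts SLC12A2-DT, SLC20A1-DT and SLC30A6-DT.

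Transcripts were measured by bulk RNA sequencing in 2 libraries of TREX1 KO-1, 2 of TREX1 KO-2 and 2 of control. KO-1 and KO-2 were made by lentiviral CRISPR v2 with different guide RNAs against TREX1. The submitters' notes call the knockouts clones, so that guide and clone cannot be told apart if each is 1 clone. The labels do not say what the control cells carried or whether the replicates are cultures of their own. A p-value here therefore speaks of library-to-library spread, and that spread may be technical. TREX1 itself was not analysed here. In bulk RNA, fewer cells of a type and less RNA per cell cannot be told apart.

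The shallowest library, KO-2 replicate 1, held 13222933 reads and the deepest, control replicate 2, held 25785055. KO-2 replicate 1 stood apart from the other 5 libraries on the second principal component of log2 CPM, at -33.4 against 5.18 to 8.94, and it had 61 genes at 0 reads against 5 to 16. All 6 epithelial markers (such as EPCAM and KRT8) were measured, and their summed level was 2207 to 2216 CPM in KO-1, 2171 to 2198 CPM in KO-2, and 1765 to 1803 CPM in control. It moved with the groups, and its part in the results below was not tested. Of 11 leukocyte, endothelial and red cell markers 5 were analysed, at 38.8 to 39.5 CPM in KO-1, 34.7 to 36.2 CPM in KO-2, and 36.9 to 40.0 CPM in control in sum, and the others, CD3E and HBB among them, were not analysed here.

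Solute carriers are grouped into families by sequence, and members of a family often share a kind of substrate. Those of the plasma membrane set which nutrients a cell can take up, while the SLC25 family links the cytosol with the mitochondrial matrix. In tumour cells the glucose carrier SLC2A1, the amino acid exchangers SLC7A5 and SLC7A11 and the lactate carrier SLC16A1 are known for supplying rapid growth. The results below follow the substrate. Errors after ± are standard errors of a log2 fold change from limma, which was called at an adjusted p below 0.05 over all 13765 genes.

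Single genes moved in both directions, and most substrate groups held called rises as well as called falls. Many of those calls did not hold without each library. Among the calls that did, metal and nucleotide sugar carriers kept only rises, and vitamin, nucleoside, organic ion and creatine groups only falls. Among the genes that rose in the knockout cells were the glucose carrier SLC2A1, the lactate carrier SLC16A1, the cystine exchanger SLC7A11, the large neutral amino acid exchanger SLC7A5 and the zinc exporter SLC30A1. Among those that fell were the organic cation carrier SLC29A4, the fatty acid carrier SLC27A4, the biotin carrier SLC5A6, the creatine carrier SLC6A8 and the mitochondrial carriers SLC25A11 and SLC25A1. For the mean of both guides against control, 29 of the 230 genes rose, or 12.6%, against 14.6% of all genes tested. On the other side 45 fell, or 19.6%, against 14.9% of all genes. The upward share was close to that of all genes. The median log2 fold change of the 230 was -0.06, against -0.01 over all genes. The level per length spanned 0.0886 CPM per kb of exon (SLC47A2) to 318 (SLC25A5), with a median of 5.31, and 34 members had under 100 reads in every library. Most shifts were modest: the median absolute log2 fold change of the called members was 0.38, and 3 of them, SLC52A1, SLC2A12 and SLC18A3, changed at least 2-fold, all upwards. Of these, SLC18A3 was called with KO-1 alone but not with KO-2 alone. The 4 knockout libraries all lay above both controls for 43 members, 18.7% against 22.3% of all genes, and all below them for 76, 33.0% against 24.0%.

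The share of calls in each direction depended on scaling and on single libraries. With library medians set equal, 36 rose and 35 fell, so that 50.7% of calls were upward in place of 39.2%. The same scaling moved the upward share over all genes to 61.7% in place of 49.4%. Counts of higher and lower genes came to 14 and 14 without control replicate 1, 16 and 16 without control replicate 2, 21 and 25 when KO-1 replicate 1 was omitted, and 20 and 30 when KO-1 replicate 2 was. Without control replicate 1 and without control replicate 2 the upward share of the members' calls was 50%, against 55.4% and 54.6% over all genes. Omitting either KO-2 library raised the number of calls in both directions, among the members and over all genes alike. Of the 74 calls, 27 held without each library in turn. These 27 carry the account below, and a gene whose call did not hold is marked as such where it is named.

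**Figure D1:**
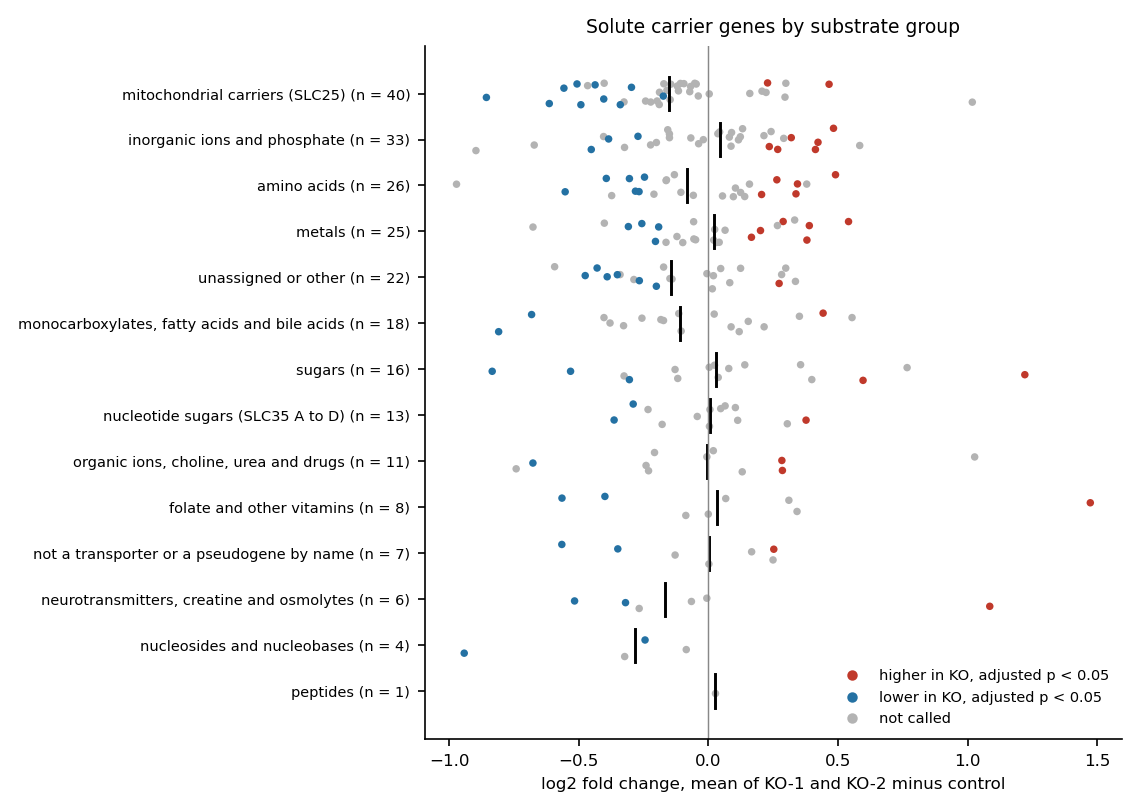
Log2 fold change of each of the 230 members (mean of KO-1 and KO-2 minus control, horizontal axis) by substrate group; red points rose, blue points fell, grey points were not called, and the black bar is the group median. The 40 mitochondrial carriers hold 10 blue points against 2 red, and the largest called rise, SLC52A1, sits at 1.47 among the vitamin carriers.

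Among the 26 amino acid carriers 5 rose and 6 fell, 19.2% and 23.1%, against 14.6% and 14.9% of all genes. Their median was -0.08. SLC7A5, the exchanger that brings in leucine and other large neutral amino acids, was the third most abundant member per length, at 176 CPM per kb of exon. Its level was 10.03 and 9.94 log2 CPM in the KO-1 libraries, 9.58 and 9.66 in KO-2, and 9.44 and 9.48 in control. All 4 knockout libraries lay above both controls, and the KO-1 libraries above those of KO-2. The log2 fold change was 0.34 ± 0.04 for both guides (adjusted p = 0.000336). KO-1 alone gave a rise of 0.53 (adjusted p = 5.41e-05), and KO-2 alone a value of 0.16 that was not called (adjusted p = 0.0505). SLC7A5 lies on chromosome 16 from 87830023 to 87869488 on the minus strand (hg38, GENCODE version 29).

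The 250 bases before the SLC7A5 start are shown because this promoter holds an E-box, the CACGTG letters bound by MYC-family and related factors, which are known to regulate amino acid carriers. They lie at chr16:87869508-87869757 on the minus strand of GRCh38.p14 (RefSeq) and read 5′ to 3′, with the E-box in capitals.
SLC7A5: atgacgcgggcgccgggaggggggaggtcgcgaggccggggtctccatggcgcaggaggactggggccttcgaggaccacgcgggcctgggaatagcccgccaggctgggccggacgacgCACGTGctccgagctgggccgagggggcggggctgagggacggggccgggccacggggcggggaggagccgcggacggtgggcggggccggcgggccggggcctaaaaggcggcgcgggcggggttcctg
The motif was searched as CACGTG, which reads the same on both strands. It was found in 6.34% of all 35116 RefSeq windows of this length and in 11.3% of the 284 windows of the 194 members that matched the table. The match describes letters only.

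SLC7A11, the cystine-glutamate exchanger that feeds glutathione synthesis, stood at 7.91 and 7.80 log2 CPM in KO-1, 7.76 and 8.0 in KO-2, and 7.24 and 7.52 in control. The knockout libraries did not overlap the controls. It rose by 0.48 with KO-1 (adjusted p = 0.00419) and by 0.50 with KO-2 (adjusted p = 0.00732). Omitting control replicate 1 lost both calls (KO-1 0.059, KO-2 0.0981), omitting KO-1 replicate 1 lost that of KO-1 (0.0724), and the fit with no trend lost both (0.0759 and 0.11). For both guides the log2 fold change was 0.49 ± 0.08 (adjusted p = 0.00174). SLC38A2, the sodium-coupled neutral amino acid carrier that cells induce on amino acid shortage, was at 9.83 and 9.84 log2 CPM in KO-1, 9.56 and 9.72 in KO-2, and 9.46 and 9.49 in control. It rose by 0.26 ± 0.05 (adjusted p = 0.00232), and by 0.15 under quantile normalization (adjusted p = 0.0357). Without a mean-variance trend the adjusted p of SLC7A11 was 0.0553 and that of SLC38A2 was 0.064. SLC3A2, the heavy chain with which both SLC7A5 and SLC7A11 must pair, was called higher at 0.21 ± 0.05 (adjusted p = 0.0167), a call lost without KO-1 replicate 1 (adjusted p = 0.0834), control replicate 1 (0.201) or control replicate 2 (0.077). SLC38A4 was likewise called at 0.34 and lost without control replicate 1 (adjusted p = 0.138) or control replicate 2 (0.106).

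SLC43A1, a facilitative carrier of branched-chain amino acids, moved the other way. It was at 3.82 and 3.70 log2 CPM in KO-1, 4.03 and 4.04 in KO-2, and 4.45 in both control libraries. All knockout libraries were lower, and it fell by 0.55 on the log2 scale (SE 0.10, adjusted p = 0.00235). SLC1A5, the main glutamine exchanger of many tumour cells, was at 7.30 and 7.24 log2 CPM in KO-1, 7.14 and 7.25 in KO-2, and 7.50 in both control libraries. Its log2 fold change of -0.27 ± 0.05 (adjusted p = 0.00387) was called, and the call was lost without control replicate 1 (adjusted p = 0.0718) or control replicate 2 (0.0593). The calls of the other 4 lower genes, SLC36A1, SLC7A7, SLC38A10 and SLC1A4, at -0.25 to -0.39, were all lost without control replicate 1 (adjusted p of 0.0612 to 0.153) and without control replicate 2 (0.109 to 0.158). For the last 3, omitting a KO-1 library also lost the call. The cationic amino acid carrier SLC7A1 was at -0.06 (adjusted p = 0.467) and the neutral carrier SLC38A1 at 0.10 (adjusted p = 0.0862), both uncalled. Summed over the 26 genes the level was 3943 and 3825 CPM in KO-1, 3335 and 3601 in KO-2, and 3230 and 3338 in control, so KO-2 replicate 1 fell among the controls.

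Sugar carriers held 2 genes that rose and 3 that fell among 16, with a median of 0.03. The shares were 12.5% and 18.75%, against 14.6% and 14.9% of all genes. SLC2A1, the basal glucose importer GLUT1 (chromosome 1, 42925375 to 42959176, minus strand), was the most abundant of them per length, at 51.9 CPM per kb. It was at 8.23 and 8.25 log2 CPM in KO-1, 7.88 and 8.06 in KO-2, and 7.53 and 7.49 in control. The 3 groups did not overlap, with KO-1 highest. The rise was 0.73 with KO-1 (adjusted p = 3.53e-05), 0.46 with KO-2 (adjusted p = 0.00151, or 0.0672 without a mean-variance trend), and 0.60 ± 0.06 for both (adjusted p = 4.98e-05). SLC2A12, the related insulin-responsive glucose carrier GLUT12, was far rarer: it had 121 and 162 reads in KO-1, 74 and 152 in KO-2, and 70 and 81 in control, from deeper control libraries. On the log2 CPM scale it was at 2.89 and 3.16 in KO-1, 2.53 and 2.93 in KO-2, and 1.63 and 1.68 in control, with no overlap. This was a rise of 1.22 ± 0.18 (adjusted p = 0.000779), or 2.33-fold.

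SLC37A4 carries glucose 6-phosphate into the endoplasmic reticulum, where it is hydrolysed to glucose. Its level was 4.62 and 4.66 log2 CPM in KO-1, 4.67 and 4.98 in KO-2, and 5.54 and 5.58 in control. Every knockout library was lower than both controls, and it fell by 0.83 on the log2 scale (SE 0.10, adjusted p = 0.000177). SLC45A3 at -0.53 and SLC50A1 at -0.30 were also called lower, but SLC45A3 lost its call without KO-1 replicate 1 (adjusted p = 0.07), control replicate 1 (0.175) or control replicate 2 (0.122), and SLC50A1 without either KO-1 library (0.113 and 0.0947) or either control library (0.156 and 0.303). SLC2A3, the high-affinity glucose carrier of neurons, was uncalled at 0.40 (adjusted p = 0.0974), as was the myo-inositol carrier SLC5A3 at 0.08 (adjusted p = 0.553). The whole group summed to 673 and 668 CPM in KO-1, 567 and 643 in KO-2, and 558 and 566 in control.

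Of 18 carriers of monocarboxylates, fatty acids and bile acids, 1 rose and 2 fell, and each call held without each library. The shares were 5.56% and 11.1%, against 14.6% and 14.9% of all genes. SLC16A1, the lactate and pyruvate carrier MCT1, stood at 7.78 and 7.73 log2 CPM in KO-1, 7.72 and 7.71 in KO-2, and 7.28 and 7.31 in control. The guides lay close together and above control, with a rise of 0.44 ± 0.05 (adjusted p = 0.000119). SLC16A3, the lactate exporter MCT4 of glycolytic cells, overlapped between groups and was uncalled at 0.12 (adjusted p = 0.6). SLC27A4, a fatty acid transport protein with acyl-CoA synthetase activity, was at 5.69 and 5.65 log2 CPM in KO-1, 6.05 and 5.99 in KO-2, and 6.56 and 6.49 in control. It was lowest in KO-1, then KO-2, then control, without overlap, with a log2 fold change of -0.68 ± 0.06 for both guides (adjusted p = 4.09e-05). SLC16A14, an orphan of the monocarboxylate family, was at 3.95 and 4.04 log2 CPM in KO-1, 4.49 and 4.01 in KO-2, and 4.98 and 4.88 in control, and fell by 0.81 (SE 0.13, adjusted p = 0.00112).

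**Figure D2:**
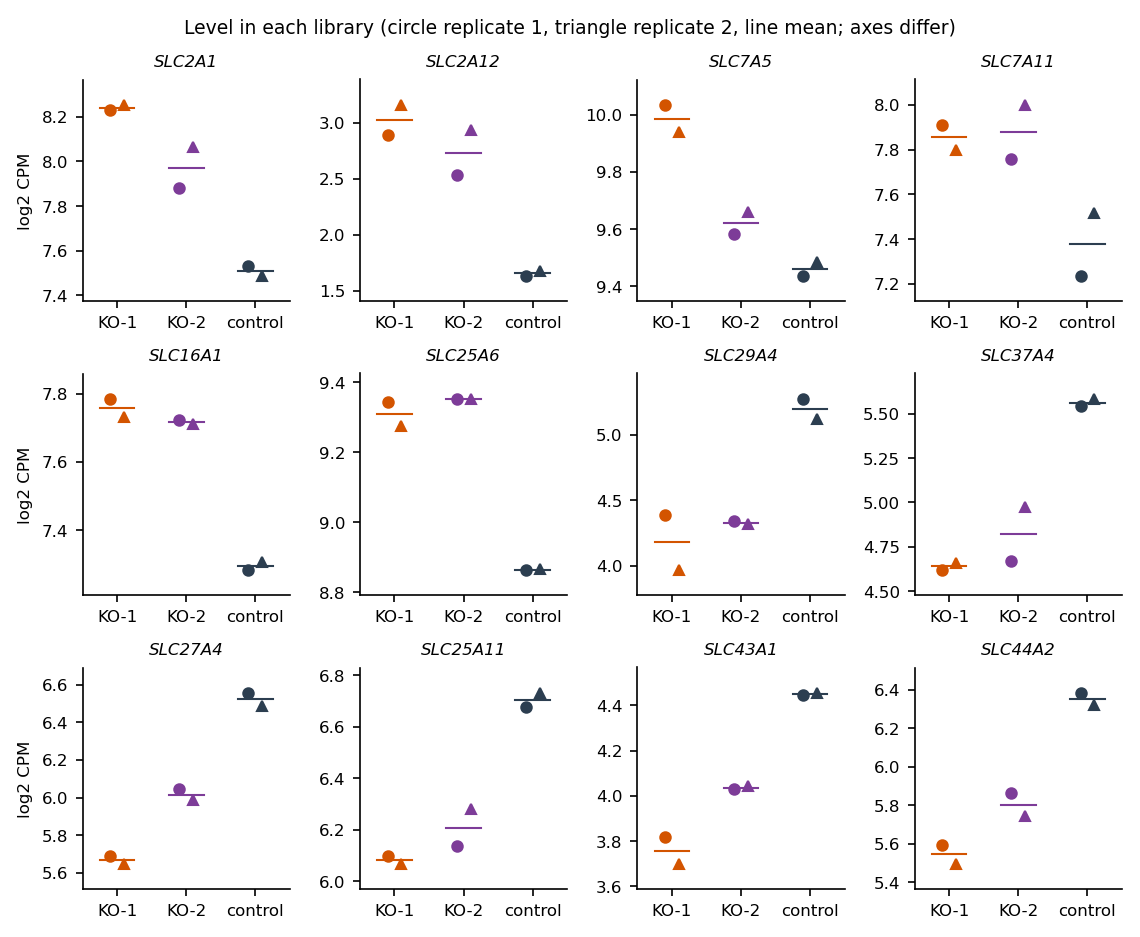
Log2 CPM (vertical axis, own range in each panel) of 12 leading genes in each library, with KO-1, KO-2 and control from left to right, circles for replicate 1, triangles for replicate 2 and a line at the mean of 2. In all 12 panels the 4 knockout libraries lie on one side of both controls: SLC2A1, SLC2A12, SLC7A5, SLC7A11, SLC16A1 and SLC25A6 above, and SLC29A4, SLC37A4, SLC27A4, SLC25A11, SLC43A1 and SLC44A2 below.

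The 4 members grouped as nucleoside carriers all belong to the equilibrative SLC29 family, most of which let nucleosides follow their gradient. By limma 0 rose and 2 fell, with 0 and 3 at an unadjusted p below 0.05, and the median was -0.28. The called shares were 0% and 50%, against 14.6% and 14.9% of all genes. The 2 were SLC29A4 and SLC29A1, and the call of SLC29A1 did not hold without each library. SLC29A4, known for moving monoamines and other organic cations rather than most nucleosides, was at 4.39 and 3.97 log2 CPM in KO-1, 4.34 and 4.31 in KO-2, and 5.27 and 5.12 in control. Knockout and control libraries were well apart, and it fell by 0.94 (SE 0.12, adjusted p = 0.000322), to 0.521 times its control level. SLC29A1, the main plasma membrane nucleoside carrier ENT1, was at 5.78 and 5.88 log2 CPM in KO-1, 6.11 and 6.15 in KO-2, and 6.17 and 6.28 in control. It was called at -0.24 ± 0.07 for both guides (adjusted p = 0.0181) and at -0.39 with KO-1 (adjusted p = 0.00325), with the KO-1 call lost when KO-1 replicate 1 (0.0541) or control replicate 2 (0.0609) was omitted. With KO-2 the value was -0.09, uncalled (adjusted p = 0.428). Over both guides it lost its call without KO-1 replicate 1 (adjusted p = 0.0768), control replicate 1 (0.0855) or control replicate 2 (0.246). SLC29A2 was at -0.32 (adjusted p = 0.102) and the lysosomal SLC29A3 at -0.09 (adjusted p = 0.703).

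Both known folate importers were measured and neither was called. SLC19A1, the reduced folate carrier that also brings in methotrexate, was at 6.14 and 5.95 log2 CPM in KO-1, 5.69 and 6.02 in KO-2, and 6.03 and 6.04 in control. The groups overlapped, and the log2 fold change was -0.09 with a 95% interval of -0.29 to 0.12 (adjusted p = 0.521). SLC46A1, the proton-coupled folate carrier, was at 3.49 and 3.51 log2 CPM in KO-1, 3.11 and 3.32 in KO-2, and 3.05 and 2.98 in control. All 4 knockout libraries were higher, but at 0.34 ± 0.13 for both guides it missed the threshold (adjusted p = 0.0727), while with KO-1 it was called at 0.49 (adjusted p = 0.0328). That call was lost without KO-1 replicate 1 (0.133), KO-1 replicate 2 (0.141), control replicate 1 (0.138) or control replicate 2 (0.193).

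Among the other vitamin carriers, SLC5A6, which takes up biotin and pantothenate with sodium, was at 6.20 and 6.09 log2 CPM in KO-1, 6.19 and 6.47 in KO-2, and 6.81 and 6.80 in control. It fell by 0.56 (SE 0.08, adjusted p = 0.000567), with no overlap. SLC52A1, a riboflavin carrier, had 54 and 44 reads in KO-1, 18 and 48 in KO-2, and 17 and 20 in control. Its rise of 1.47 ± 0.31 (adjusted p = 0.00532), the largest called among the 230, came to 0.91 with a pseudocount of 1 CPM and lost its call without control replicate 1 (adjusted p = 0.061). The vitamin C carrier SLC23A2 was called at -0.40 ± 0.10 (adjusted p = 0.0105), and lost the call without control replicate 1 (0.13) or control replicate 2 (0.0759). In all, 1 of 8 genes of this group rose and 2 fell, 12.5% and 25%, against 14.6% and 14.9% of all genes.

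Of 25 metal carriers 6 rose and 4 fell, 24% and 16%, against 14.6% and 14.9% of all genes. By limma the counts were 4 and 0 without KO-1 replicate 1, 3 and 1 without KO-1 replicate 2, 3 and 0 without control replicate 1, and 2 and 0 when control replicate 2 was omitted. With no mean-variance trend they were 3 and 0. Where 0 fell, an unadjusted p below 0.05 left 4 lower without KO-1 replicate 1, 2 without control replicate 1, 3 when control replicate 2 was omitted and 4 with no trend, and voom called 6 higher and 5 lower. SLC30A1, the exporter that removes zinc from the cytosol (chromosome 1, 211571568 to 211578742, minus strand), was at 7.50 and 7.42 log2 CPM in KO-1, 6.95 and 7.06 in KO-2, and 6.67 and 6.71 in control. The 3 groups were apart from each other, with rises of 0.77 with KO-1 (adjusted p = 2.49e-05) and 0.31 with KO-2 (adjusted p = 0.0096). The KO-2 call was lost when control replicate 1 (0.121) or control replicate 2 (0.0766) was omitted, and without a mean-variance trend (0.0906). For both guides the log2 fold change was 0.54 ± 0.06 (adjusted p = 9.33e-05). SLC39A10, a zinc importer of the plasma membrane, was at 8.20 and 8.25 log2 CPM in KO-1, 7.93 and 7.82 in KO-2, and 7.67 and 7.65 in control, the same order of groups. It rose by 0.39 ± 0.05 (adjusted p = 0.000319). Thus an exporter and an importer of zinc were both higher.

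SLC30A1 is known as a target of the zinc-sensing factor MTF1, which binds metal response elements, so the 250 bases before its RefSeq start are shown. They lie at chr1:211579162-211579411 on the minus strand of GRCh38.p14, upstream of the start that GENCODE version 29 gives. Capitals mark the 1 match to the core of a metal response element, written on the other strand.
SLC30A1: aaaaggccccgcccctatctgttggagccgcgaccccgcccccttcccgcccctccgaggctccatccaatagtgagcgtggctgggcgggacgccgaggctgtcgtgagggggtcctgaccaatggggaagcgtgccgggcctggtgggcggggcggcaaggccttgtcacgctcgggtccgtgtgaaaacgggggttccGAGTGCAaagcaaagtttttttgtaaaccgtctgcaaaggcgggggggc
The core was searched as TGCACNC or TGCGCNC on both strands, and 24.8% of all windows and 33.1% of the members' windows held it. At that frequency a match is common, and nothing about binding follows from it.

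The other 8 metal calls were smaller and none held without each library. SLC41A2 (0.38) and SLC41A1 (-0.26), which carry magnesium, moved in opposite directions. SLC41A2 lost its call without control replicate 2 (adjusted p = 0.156), and SLC41A1 without KO-1 replicate 1 (0.0715), control replicate 1 (0.105) or control replicate 2 (0.203). Zinc carriers of organelles were called higher for SLC30A7 (0.29), SLC39A7 (0.17) and SLC39A9 (0.20), and lower for SLC30A9 (-0.19) and SLC39A13 (-0.31). The copper importer SLC31A1 was called lower at -0.20, although its knockout and control libraries overlapped. Without control replicate 1 these 6 had adjusted p of 0.116 to 0.368, without control replicate 2 of 0.121 to 0.244, and omitting KO-1 replicate 2 lost all 6 as well. The iron exporter SLC40A1 (0.06, adjusted p = 0.695) and the iron importer SLC11A2 (-0.10, adjusted p = 0.22) were uncalled.

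The mitochondrial carriers leaned downwards. Of 40 SLC25 genes 10 fell and 2 rose, 25% and 5.0%, against 14.9% and 14.6% of all genes, and the median log2 fold change was -0.15. The median was between -0.20 and -0.11 in every alternative setting tried. The counts of calls moved with single libraries. They fell in both directions without a control or a KO-1 library, and rose in both without a KO-2 library. Calls over all genes fell and rose with the same omissions. For 20 of the 40 (50%) all knockout libraries lay below both controls, against 24.0% of all genes. For 6 (15%) all lay above, against 22.3%. With KO-1 alone 13 fell and 2 rose, 32.5% and 5%, against 15.1% and 14.6% of all genes. With KO-2 alone 5 fell and 1 rose, 12.5% and 2.5%, against 8.19% and 8.73%. The summed level differed little, at 3424 and 3410 CPM in KO-1, 3414 and 3459 in KO-2, and 3548 and 3519 in control.

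The 3 ADP/ATP carriers, which exchange ATP made in the matrix for cytosolic ADP, moved unequally. SLC25A6, in the pseudoautosomal region at X 1386152 to 1392724, was at 9.34 and 9.27 log2 CPM in KO-1, 9.35 in both KO-2 libraries and 8.86 in both control libraries. Each knockout library stood clear of control, and the rise was 0.47 ± 0.04 (adjusted p = 2.9e-05). Taken singly, KO-1 gave 0.44 and KO-2 gave 0.49, the KO-2 call being lost without a mean-variance trend (adjusted p = 0.0504). SLC25A4, the form known from heart and muscle, was at 6.33 and 6.28 log2 CPM in KO-1, 6.59 and 6.57 in KO-2, and 6.79 and 6.77 in control, and fell by 0.34 (SE 0.06, adjusted p = 0.00131). With KO-2 alone it was not called. In the authors' deposited table it was at -0.48 with KO-1 (false discovery rate 0.000193) and at -0.20 with KO-2 (0.0505). SLC25A5, the form of dividing cells, was at 8.90 and 8.91 log2 CPM in KO-1, 8.90 and 8.79 in KO-2, and 8.94 and 8.96 in control. It was uncalled at -0.07, with a 95% interval of -0.17 to 0.03 (adjusted p = 0.256). Per length, SLC25A6 was at 293, 302 and 215 CPM per kb in KO-1, KO-2 and control, SLC25A5 at 319, 307 and 329, and SLC25A4 at 16.3, 19.8 and 22.7. The 3 genes have like sequences and pseudogenes, and SLC25A6 has a Y copy, so reads may have been split among copies in a way that the sources used here do not give.

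Carriers of di- and tricarboxylates held 3 falls among 5 genes, against 14.9% of all genes. The count was 2 with library medians set equal, with quantile normalization, without a mean-variance trend, and without either KO-1 or either control library. SLC25A11, the oxoglutarate-malate exchanger of the malate-aspartate shuttle, was at 6.10 and 6.07 log2 CPM in KO-1, 6.14 and 6.28 in KO-2, and 6.67 and 6.73 in control. SLC25A1, which exports citrate for fatty acid synthesis, was at 7.31 and 7.20 log2 CPM in KO-1, 7.08 and 7.23 in KO-2, and 7.59 and 7.63 in control. Both were lower in every knockout library, with log2 fold changes of -0.56 ± 0.06 for SLC25A11 (adjusted p = 0.000173) and -0.40 ± 0.06 for SLC25A1 (adjusted p = 0.000795). The dicarboxylate carrier SLC25A10 was called at -0.61 ± 0.20 (adjusted p = 0.0427), which came to -0.40 without KO-2 replicate 1. Its call was lost without KO-1 replicate 1 (adjusted p = 0.0709), KO-1 replicate 2 (0.148), control replicate 1 (0.192) or control replicate 2 (0.198).

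Among 8 mitochondrial amino acid carriers 3 fell and 0 rose by limma, 37.5% and 0%, against 14.9% and 14.6% of all genes. At an unadjusted p below 0.05 they were 4 and 0. The ornithine carrier SLC25A15, part of the urea cycle in liver, was at 5.52 and 5.55 log2 CPM in KO-1, 5.92 and 5.73 in KO-2, and 6.15 and 6.20 in control, and fell by 0.49 (SE 0.07, adjusted p = 0.000786). The aspartate-glutamate exchanger SLC25A12, also of the malate-aspartate shuttle, was called at -0.30 and the basic amino acid carrier SLC25A29 at -0.51. SLC25A12 lost its call without KO-1 replicate 1 (adjusted p = 0.0653), control replicate 1 (0.183) or control replicate 2 (0.139), and SLC25A29 without either KO-1 library (0.0609 and 0.0834) or either control library (0.186 and 0.0679). The remaining mitochondrial calls were the coenzyme A carrier SLC25A42 (-0.86), the NAD carrier SLC25A51 (-0.44), the ATP-magnesium carrier SLC25A24 (-0.17) and SLC25A30 (0.23). All 4 were lost without control replicate 1 (adjusted p of 0.249 to 0.323), control replicate 2 (0.115 to 0.229) or KO-1 replicate 2 (0.0635 to 0.128). The phosphate carrier SLC25A3 was uncalled at -0.04 (adjusted p = 0.624), as were the mitoferrins SLC25A37 (-0.19) and SLC25A28 (-0.17).

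**Figure D3:**
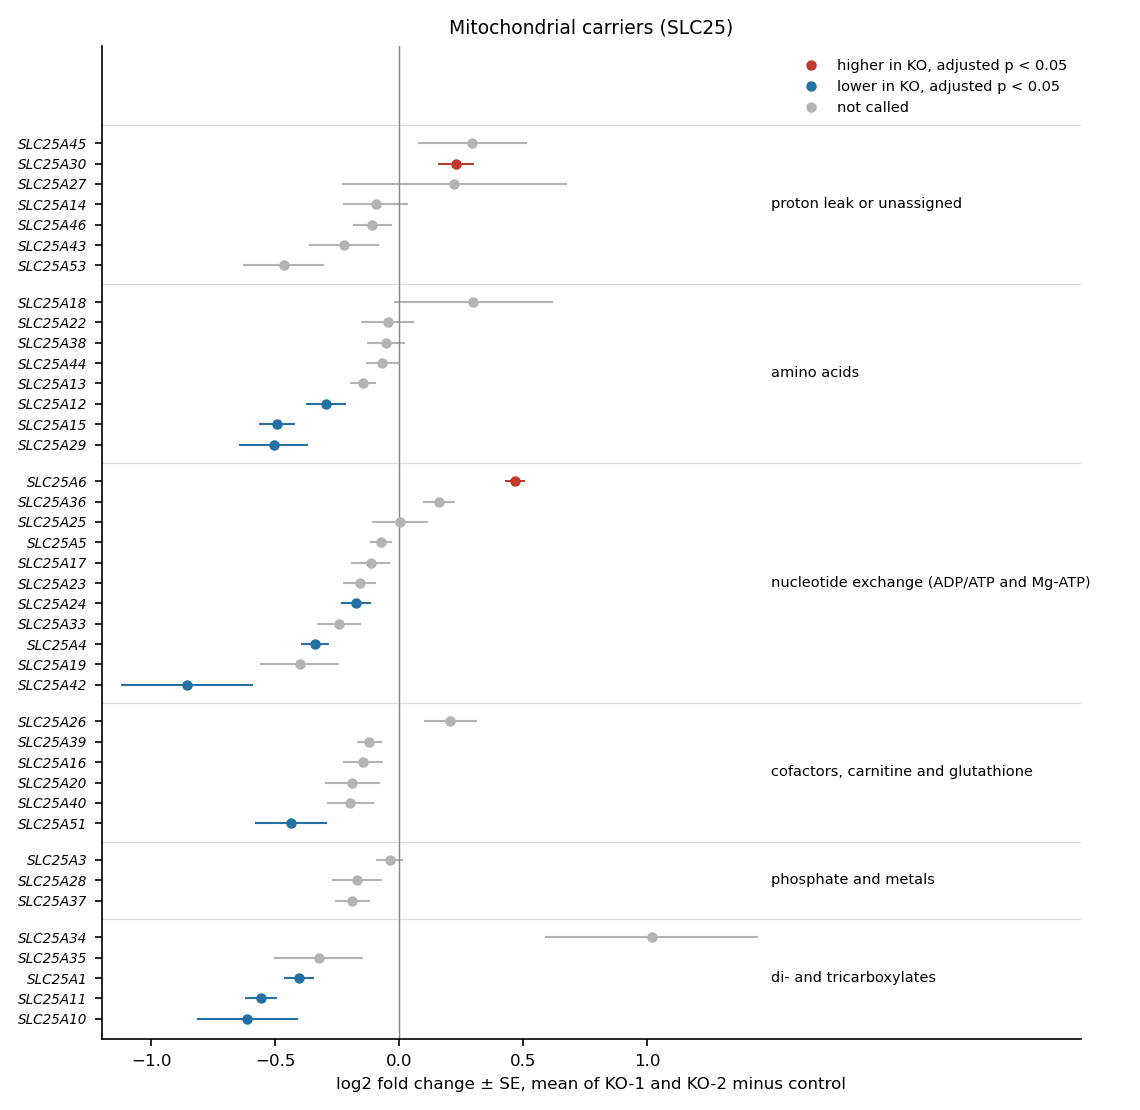
Log2 fold change with its standard error (mean of KO-1 and KO-2 minus control, horizontal axis) of the 40 mitochondrial carriers, by what they carry; red rose, blue fell, grey was not called. SLC25A6 at 0.47 lies far right of SLC25A5 and SLC25A4 in its own class, and 3 of the 5 di- and tricarboxylate carriers are blue.

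Inorganic ion and phosphate carriers held 6 rises and 3 falls among 33 genes, 18.2% and 9.09%, against 14.6% and 14.9% of all genes. SLC26A2, which takes up sulfate, was at 8.0 log2 CPM in both KO-1 libraries, 7.74 and 7.94 in KO-2, and 7.41 and 7.47 in control, and rose by 0.48 ± 0.06 (adjusted p = 0.00025). SLC12A2, the sodium-potassium-chloride cotransporter NKCC1, was at 9.22 and 9.16 log2 CPM in KO-1, 8.93 and 9.02 in KO-2, and 8.74 and 8.78 in control, a rise of 0.32 ± 0.04 (adjusted p = 0.000523). Neither overlapped between knockout and control. The sodium-phosphate carrier SLC34A2 rose by 0.42 ± 0.07 (adjusted p = 0.00162), at 5.64 and 5.58 log2 CPM in KO-1, 5.43 and 5.45 in KO-2, and 5.13 and 5.07 in control. The sodium-bicarbonate carrier SLC4A7, which raises cytosolic pH, was at 6.16 and 6.28 log2 CPM in KO-1, 6.47 and 6.32 in KO-2, and 6.73 and 6.78 in control, and fell by 0.45 (SE 0.07, adjusted p = 0.000794). The phosphate carrier SLC20A1 (0.27) and the sodium-proton exchangers SLC9A2 (0.41), SLC9A8 (-0.38) and SLC9A7 (-0.27) were called but lost the call without control replicate 1 (adjusted p of 0.0793 to 0.181). All but SLC9A2 also lost it without control replicate 2 (0.148 to 0.265).

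Among 11 carriers of organic ions, choline and drugs, 2 rose and 1 fell, 18.2% and 9.09%, against 14.6% and 14.9% of all genes. All 3 belong to the choline carrier-like SLC44 family. SLC44A2 was at 5.59 and 5.50 log2 CPM in KO-1, 5.87 and 5.74 in KO-2, and 6.38 and 6.32 in control, and fell by 0.68 (SE 0.07, adjusted p = 8.94e-05). SLC44A1 rose by 0.29 ± 0.06 (adjusted p = 0.00438), a call lost without control replicate 1 (0.104), and SLC44A5 by 0.28 ± 0.06 (adjusted p = 0.0048), lost without control replicate 1 (0.0522) or control replicate 2 (0.097). The family thus had calls in both directions, but the rises did not hold without each library. With KO-2 alone it had 0 higher and 1 lower. The creatine importer SLC6A8 was at 5.11 and 5.36 log2 CPM in KO-1, 5.22 and 5.41 in KO-2, and 5.78 and 5.81 in control. It fell by 0.52 (SE 0.09, adjusted p = 0.0019). Its group of 6 held 1 rise and 2 falls, 16.7% and 33.3%, against 14.6% and 14.9% of all genes. SLC18A3, the vesicular acetylcholine carrier, rested on few reads, 48 and 32 in KO-1, 8 and 18 in KO-2, and 12 and 16 in control. Taken singly, KO-1 gave a called rise of 1.82 and KO-2 was not called, and what follows is for both guides. It was called at 1.09 ± 0.37 (adjusted p = 0.0448), against 0.61 with a pseudocount of 1 CPM, and without KO-1 replicate 1 or 2 or control replicate 1 or 2 the call was lost (adjusted p of 0.0602 to 0.253). The vesicular polyamine carrier SLC18B1, called at -0.32, was lost without KO-1 replicate 1 (0.121), control replicate 1 (0.193) or control replicate 2 (0.229).

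Of 13 nucleotide sugar carriers of the Golgi and endoplasmic reticulum 1 rose and 2 fell. The shares were 7.69% and 15.4%, against 14.6% and 14.9% of all genes. SLC35D1, which carries UDP-glucuronic acid, was at 6.90 and 6.88 log2 CPM in KO-1, 6.78 and 6.79 in KO-2, and 6.39 and 6.53 in control, and rose by 0.38 ± 0.06 (adjusted p = 0.00104), with no overlap. SLC35A4, called at -0.29, depended on control replicate 1 (adjusted p = 0.0768 without it), and SLC35C2, called at -0.36, lost its call without KO-1 replicate 2 (0.0842), control replicate 1 (0.118) or control replicate 2 (0.175). Among 22 members of unassigned or other substrate 1 was called higher and 6 lower, led by SLC35E3 at -0.47. The shares were 4.5% and 27.3%, against 14.6% and 14.9% of all genes. Each of the 7 lost its call without control replicate 1. The only peptide carrier that passed the level filter, SLC15A4, was uncalled at 0.02. Of the 7 genes that are not carriers, SLC2A4RG, which encodes a transcription factor, was at 6.39 and 6.41 log2 CPM in KO-1, 6.70 and 6.81 in KO-2, and 7.17 and 7.11 in control, and fell by 0.57 (SE 0.06, adjusted p = 8.8e-05). SLC4A1AP (0.25) and SLC12A2-DT (-0.35) were called and lost without either control library (0.0775 to 0.337) or KO-1 replicate 1 (0.108 and 0.109).

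Taken by guide, KO-1 against control gave 34 higher and 43 lower members, 14.8% and 18.7%, against 14.6% and 15.1% of all genes. KO-2 against control gave 18 and 30, 7.83% and 13%, against 8.73% and 8.19%. These comparisons share the control libraries. In the authors' deposited table, at a false discovery rate below 0.05, KO-1 had 34 higher and 45 lower members, while KO-2 had 21 and 32. For KO-1 that table called 34.35% of the members, against 28.98% of all its 14788 rows. The KO-2 shares there were 23.04% of the members and 16.67% of all rows. Those rows include genes below the level filter that the members had to pass, so these shares are over unlike sets. Leaving out 1 library moved the KO-1 counts to between 16 and 48 higher and between 17 and 69 lower, with the fewest without KO-1 replicate 1 (16 and 21), KO-1 replicate 2 (20 and 19), control replicate 1 (17 and 17) or control replicate 2 (19 and 17) and the most without KO-2 replicate 1 (47 and 68) or KO-2 replicate 2 (48 and 69). KO-2 counts came to 3 and 5 without control replicate 1, 6 and 7 without control replicate 2, 8 and 17 without either KO-1 library, 27 and 43 without KO-2 replicate 1, and 24 and 63 without KO-2 replicate 2.

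Tested against each other, KO-2 against KO-1 gave 2 higher and 6 lower members, 0.870% and 2.61%, against 0.334% and 0.806% of all genes. The authors' deposited table gave 3 and 7, which is 4.35% of the members, against 1.49% of all its rows, again with genes below the level filter among them. SLC30A1 (-0.46 ± 0.06, adjusted p = 0.00934), SLC7A5 (-0.36 ± 0.05, adjusted p = 0.00838) and SLC39A10 (-0.35 ± 0.06, adjusted p = 0.0191) were lower in KO-2 than in KO-1 and lay between KO-1 and control. The fatty acid carrier SLC27A4 (0.35 ± 0.07, adjusted p = 0.0478) and SLC2A4RG (0.36 ± 0.07, adjusted p = 0.0322) were higher in KO-2, and again lay between. For all 5 the KO-2 libraries were thus on the same side of control as KO-1 but nearer to it.

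The other 3 genes lay on opposite sides of control in the guides, though 0 of the 230 members were called in opposite directions against control. In the authors' deposited table SLC35A2 was called against control with neither guide, SLC25A44 only with KO-2 and SLC39A6 only with KO-1. SLC25A44, which carries branched-chain amino acids into mitochondria, was at 6.09 and 5.92 log2 CPM in KO-2, 6.49 and 6.52 in KO-1, and 6.36 and 6.29 in control (KO-2 minus KO-1 -0.50 ± 0.08, adjusted p = 0.015). SLC35A2, the Golgi UDP-galactose carrier, was at 5.09 and 5.08 log2 CPM in KO-2, 5.45 and 5.59 in KO-1, and 5.31 and 5.29 in control (-0.43 ± 0.09, adjusted p = 0.042). SLC39A6, a zinc importer outside the naming rule and named here after its values were seen, was at 7.45 and 7.42 log2 CPM in KO-2, 7.72 and 7.83 in KO-1, and 7.59 and 7.53 in control (-0.34 ± 0.06, adjusted p = 0.0261). In each of the 3, KO-2 was below both controls and KO-1 above. The 8 calls were all lost without KO-1 replicate 1 (adjusted p of 0.313 to 0.372) and without KO-1 replicate 2 (0.267 to 0.433). Without KO-2 replicate 1 the counts were 7 higher and 12 lower, and without KO-2 replicate 2 they were 25 and 46. Without control replicate 1 or control replicate 2 they were 0 and 3 each, beside 17 higher genes at an unadjusted p below 0.05 in limma in both cases.

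**Figure D4:**
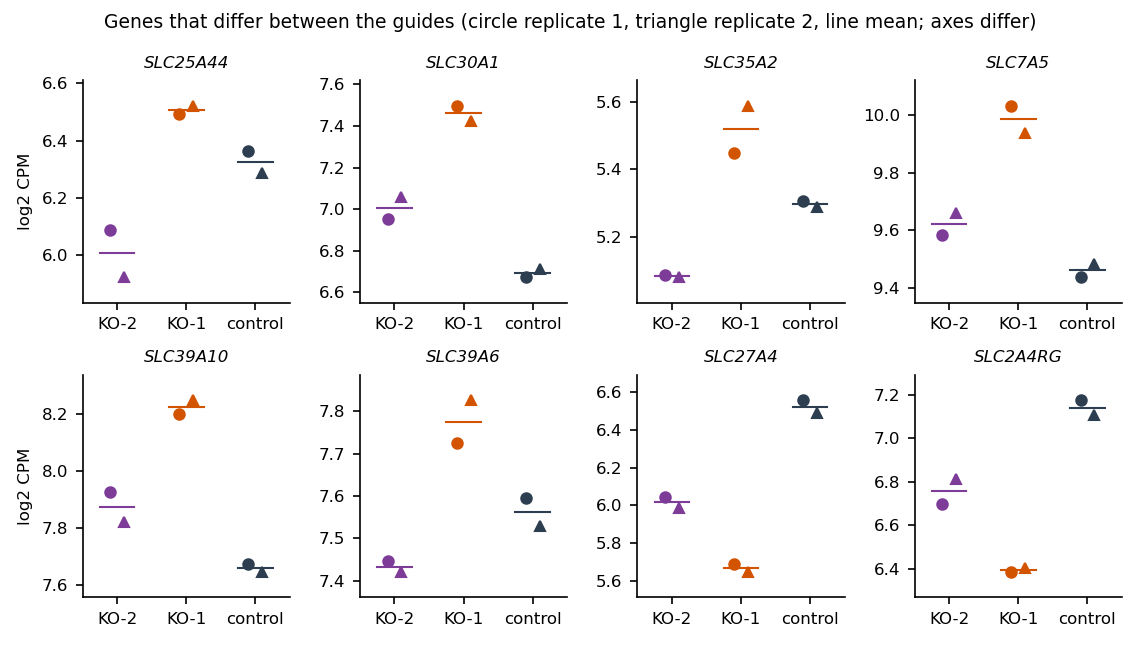
Log2 CPM (vertical axis, own range in each panel) of the 8 genes called between the guides, with KO-2, KO-1 and control from left to right, circles for replicate 1, triangles for replicate 2 and a line at the mean of 2. In SLC30A1, SLC7A5, SLC39A10, SLC27A4 and SLC2A4RG the KO-2 libraries lie between KO-1 and control; in SLC25A44, SLC35A2 and SLC39A6 they lie below both.

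Related genes outside the SLC symbols were counted from lists set for this account. Among 18 tested partners and adaptors of solute carriers 6 rose and 1 fell, 33.3% and 5.56%, against 14.6% and 14.9% of all genes. TXNIP, an arrestin that draws glucose carriers into the cell, was at 5.11 and 5.02 log2 CPM in KO-1, 4.56 and 4.42 in KO-2, and 4.02 and 4.09 in control, and rose by 0.72 ± 0.09 (adjusted p = 0.000341). ARRDC3, of the same arrestin family, rose by 0.39 ± 0.06 (adjusted p = 0.000701), and neuroplastin, NPTN, a chaperone of lactate carriers and calcium pumps, fell by 0.46 (SE 0.06, adjusted p = 0.000356). The 6 rises came to 3 without KO-1 replicate 2, control replicate 1 or control replicate 2, and to 4 without KO-1 replicate 1. Among 46 tested genes that are listed with the superfamily but have another symbol, TTYH3 fell by 0.82, TUSC3 by 0.80 and NIPA1 by 0.54. In all 9 rose and 10 fell, 19.6% and 21.7%, against 14.6% and 14.9% of all genes. Those counts were 3 and 6 without control replicate 1, 3 and 7 without control replicate 2, 6 and 7 when KO-1 replicate 1 was omitted, 14 and 11 without KO-2 replicate 1, and 11 and 16 without KO-2 replicate 2. Of 13 transport ATPases, which build gradients many carriers use, 1 rose and 2 fell, 7.69% and 15.4%, against 14.6% and 14.9% of all genes. The calls were the sodium pump subunit ATP1B1 at 0.16, the lysosomal pump ATP13A2 at -0.34 and the Golgi pump ATP2C1 at -0.20. ATP1B1 was at 0.41 with KO-1 (adjusted p = 0.000622) and -0.09 with KO-2 (adjusted p = 0.341). Without control replicate 1 all 3 calls were lost, with adjusted p of 0.156 for ATP1B1, 0.0626 for ATP13A2 and 0.241 for ATP2C1. ATP1B1 and ATP2C1 also lost theirs without control replicate 2 (0.273 and 0.0754), KO-1 replicate 1 (0.0753 and 0.0595) or KO-1 replicate 2 (0.145 and 0.0639).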

How the data were processed

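Bulk RNA was sequenced in 6 libraries of CAL51 cells, 2 per group. Per the submitters' processing notes, the tools were fastp, STAR 2.7, featureCounts of Subread 2.0 and edgeR, with build hg38. The sources used here do not give their roles, the annotation or the strand setting. The authors deposited log2 CPM per gene, with a prior of 0.102 CPM in every library, and a table of log2 fold changes with p-values and false discovery rates. Whole reads were recovered from the log2 CPM of every gene (tolerance 0.01 reads), with 1 read worth 0.0383 to 0.0767 CPM.

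From the deposited log2 CPM, 13765 of 14788 genes passed the level filter used for members (at least 0 in at least 2 libraries) and were fitted in R 4.3.3 with limma 3.58.1, a group-means model with 3 residual degrees of freedom and a trend of variance on mean level. Contrasts were the mean of KO-1 and KO-2 minus control, each minus control, and KO-2 minus KO-1. P-values were adjusted by Benjamini-Hochberg over all genes, and the script was tested on simulated data. The log2 CPM scale understates changes of low genes. Gene positions and exon lengths are from GENCODE version 29, and CPM per kb divides by the union of exons. Promoters are from RefSeq.

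Named genes were the 10 highest and 10 lowest called for both guides without overlap and with a mean of at least 1 log2 CPM, the 5 highest and 5 lowest between guides, up to 4 with the smallest p and the 2 most abundant of each substrate group and SLC25 class, and 3 of each related list. Other genes named, among them SLC36A1, SLC7A7, SLC38A10, SLC1A4, SLC38A4, SLC7A1, SLC50A1, SLC2A3, SLC16A3, SLC20A1, SLC41A1, SLC31A1, SLC40A1, SLC11A2 and SLC39A6, were chosen after their values were seen. The values of 1 called ion carrier are not reported here. The members and lists were chosen with earlier results of these data known, and the classes of 7 genes without a carrier role or with a changed symbol were corrected after the rows were seen. Alternatives were each library left out, other filters, pseudocount and scalings, no trend, voom on the recovered reads and a replicate block.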

Additional observations from a re-analysis of the deposited data

Results flagged for a closer look

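Among the genes named by rule, 7 had effects that differed between the guides by limma's test of KO-2 minus KO-1 over all genes. On the log2 scale the difference was -0.50 for SLC25A44, -0.46 for SLC30A1, -0.43 for SLC35A2, -0.36 for SLC7A5 and -0.35 for SLC39A10. It was 0.35 for SLC27A4 and 0.36 for SLC2A4RG. Each had KO-2 libraries that did not overlap those of KO-1. None of the 7 kept an adjusted p below 0.05 without KO-1 replicate 1 (0.314 to 0.372) or without KO-1 replicate 2 (0.267 to 0.433).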

How the results depend on the processing

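No named gene called for both guides changed sign under the alternatives run. Some uncalled ones did, such as SLC15A4, at 0.02 and at -0.06 without KO-2 replicate 2. Without a mean-variance trend, 19 members rose and 24 fell for both guides, 20 and 25 with KO-1, 0 and 0 with KO-2, and 0 and 0 between the guides. At an unadjusted p below 0.05 in that limma fit, KO-2 had 28 higher and 42 lower and the guide difference 21 and 21. Voom called 14 and 39 for KO-2 and 1 and 6 between the guides. It took plain library totals in place of the deposited scaling, which moved all genes downwards. For both guides it called 1872 of all genes higher and 2828 lower, against 2011 and 2057 in the main fit. The median over all genes was -0.04 with voom, against -0.01. Members higher in KO-2 than in KO-1 numbered 1 with library medians set equal, 1 with no filter, 1 with voom, and 0 with the replicate block (19 at an unadjusted p below 0.05).

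Leaving out 1 library gave 14 to 43 higher and 14 to 71 lower for both guides, 16 to 48 and 17 to 69 with KO-1, 3 to 27 and 5 to 63 with KO-2, and 0 to 25 and 0 to 46 between the guides. The guide difference had 0 of either direction without KO-1 replicate 1 (13 and 16 at an unadjusted p below 0.05) or KO-1 replicate 2 (15 and 23). Of the calls, 27 of 77 with KO-1, 8 of 48 with KO-2 and 0 of 8 between the guides held without each library. For both guides 25 of 74 held under every setting.

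Replicate numbers do not pair the libraries: deviations of same-numbered libraries correlated at -0.05 to 0.04. With the replicate block 28 rose and 41 fell for both guides. KO-2 replicate differences had an SD of 0.387, against 0.276 in KO-1 and 0.239 in control. With library medians set equal the median of all genes was 0.04 in place of -0.01. Low members such as SLC18A3 and SLC52A1 rest on few reads.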
